A study of Homo sapiens with 23 samples.

Results

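The suprabasal and late keratins are 9 genes of the keratin family, KRT1, KRT2, KRT4, KRT10, KRT13, KRT23, KRT77, KRT78 and KRT80, taken by gene symbol from a table of 27589 genes. They were measured by poly(A) RNA-seq in 23 subcutaneous tumours of SCC-13, an established human line of cutaneous squamous cell carcinoma, grown for 26 days in NCG mice, an immunodeficient strain with engineered Prkdc and Il2rg genes. The tested tumours carried hFWE KO, a knockout of human Flower, in the lines 2F7 (3 tumours), 2B8 (4) and 1G10 (4). The hFWE WT tumours came from the lines 5B2, 6C9 and 6C10 (4 each). The labels name each line by code only, give no edit site, and put each line in 1 genotype, so line and genotype are nested. Nothing in the labels says that each tumour grew in its own mouse, so p-values here speak only for variation from tumour to tumour, which may be partly technical. The study concerns the Flower isoform hFWE4 and cornification, the terminal differentiation of keratinocytes, while the deposited table has 1 value a gene whatever the isoform.

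Keratins are the intermediate filament proteins of epithelia, and a filament is built from pairs of a type I and a type II chain. Basal cells of the epidermis make the pair of KRT5 and KRT14. As a cell leaves the basal layer it switches to KRT1 (type II) and KRT10 (type I), and KRT2 (type II) follows higher in the epidermis. KRT4 (type II) and KRT13 (type I) form the suprabasal pair of moist stratified epithelia such as the mouth and oesophagus. KRT77 is a close relative of KRT1 known from sweat gland ducts, KRT80 is a type II keratin of many epithelia that comes up as cells differentiate, KRT78 is a type II keratin of stratified epithelia, and KRT23 is a type I keratin known to be induced by histone deacetylase inhibitors in pancreatic cancer cells. The 6 type II members lie on chromosome 12 between 52168996 (KRT80) and 52849092 (KRT78), and the 3 type I members on chromosome 17 between 40818117 (KRT10) and 41505705 (KRT13), all on the minus strand of hg38.

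The 250 bases before the gene start are shown for the members found in the RefSeq promoter table (GRCh38.p14), which are KRT2, KRT4 and KRT10. Any link between these sequences and how the members varied over the tumours was not tested. Capitals mark matches to TATAA and CCACCC, searched on both strands.
KRT10 (chr17:40822615-40822864, minus strand): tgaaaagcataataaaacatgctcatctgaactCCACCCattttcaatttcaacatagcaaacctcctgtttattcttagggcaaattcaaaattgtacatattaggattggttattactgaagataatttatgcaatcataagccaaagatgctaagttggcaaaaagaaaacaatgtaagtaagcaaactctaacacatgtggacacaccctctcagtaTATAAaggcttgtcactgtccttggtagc
KRT2 (chr12:52652212-52652461, minus strand): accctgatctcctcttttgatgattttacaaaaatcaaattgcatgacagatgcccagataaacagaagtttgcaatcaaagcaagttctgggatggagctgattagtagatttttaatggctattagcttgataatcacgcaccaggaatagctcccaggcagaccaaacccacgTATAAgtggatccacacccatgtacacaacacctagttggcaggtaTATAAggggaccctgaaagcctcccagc
KRT4 (chr12:52814117-52814366, minus strand): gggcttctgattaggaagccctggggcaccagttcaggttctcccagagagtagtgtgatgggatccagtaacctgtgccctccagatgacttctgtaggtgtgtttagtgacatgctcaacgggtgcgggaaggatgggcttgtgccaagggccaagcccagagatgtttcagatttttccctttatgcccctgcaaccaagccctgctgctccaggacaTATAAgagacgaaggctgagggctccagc
Each of the 3 holds TATAA with its first base 28 or 29 bases before the start, and KRT2 holds another whose first base lies 74 before it. Of 35116 promoters of that length, 18.9% hold TATAA. The core of KLF binding sites, CCACCC, was found 1 time, in KRT10, and in 31.3% of all promoters. TGANTCA (AP-1), AACCNGTT (grainyhead-like factors) and GTGGGAA (RBPJ) were not found in these windows. Of all promoters, 6.57% hold the AP-1 letters, 1.49% the grainyhead-like letters and 5.43% the RBPJ letters. No match overlapped another. A match is a run of letters and was not tested as a binding site.

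CACFD1, the gene of Flower, was read in every tumour, from 167.0 through a median of 276.6 to 369.5 in KO and from 286.3 through 369.6 to 431.9 in WT tumours, so the groups overlapped (log2 difference -0.45, SE 0.11, adjusted p = 0.227). Values are normalized per library, and 21 libraries held an estimated 13082214 to 22093357 reads. WT 6C9 specimens 5532 and 5533 were shallower, at 7011069 and 2037751 reads, and specimen 5533 also had the lowest median Spearman correlation with the others, 0.819. All 9 members passed the minimum mean of 10 and were tested among 16063 genes. The squamous markers fixed for the check (10 of 10 with a mean of at least 10) summed to between 707200 and 1050000 in KO tumours and between 585400 and 1005000 in WT tumours. KRT10 overlaps the antisense gene KRT10-AS1, whose mean value was 185.8. KRT80 overlaps LINC00592, with a mean of 27.1, and KRT23 overlaps the unnamed ENSG00000234477, with a mean of 4.57. These partners lie on the other strand, and no source used here states whether counting used strand, so their reads cannot be told apart.

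KRT10 and KRT1 were by far the most abundant members per length of exon (GENCODE 29). Per kb, KRT10 averaged 48430 ± 22070 in KO and 78430 ± 24810 in WT tumours (SD, n = 11 and 12). KRT1 averaged 17740 ± 9733 per kb in KO and 32120 ± 10470 per kb in WT tumours. KRT10 exceeded KRT1 per length in all 23 tumours. KRT80 followed, at 1394 ± 459.5 per kb in KO and 1761 ± 424.8 per kb in WT tumours. KRT2, KRT23, KRT4 and KRT13 came next, with means over all tumours of 703, 477.5, 426 and 340.0 per kb. Their order was not stable: KRT2 exceeded KRT23 in 9 of 11 KO tumours and in 3 of 12 WT tumours, and KRT4 exceeded KRT13 in 7 of 11 and 7 of 12. KRT78 (186 per kb) and KRT77 (58.4 per kb) were the lowest, and KRT78 exceeded KRT77 in every tumour.

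**Figure D1:**
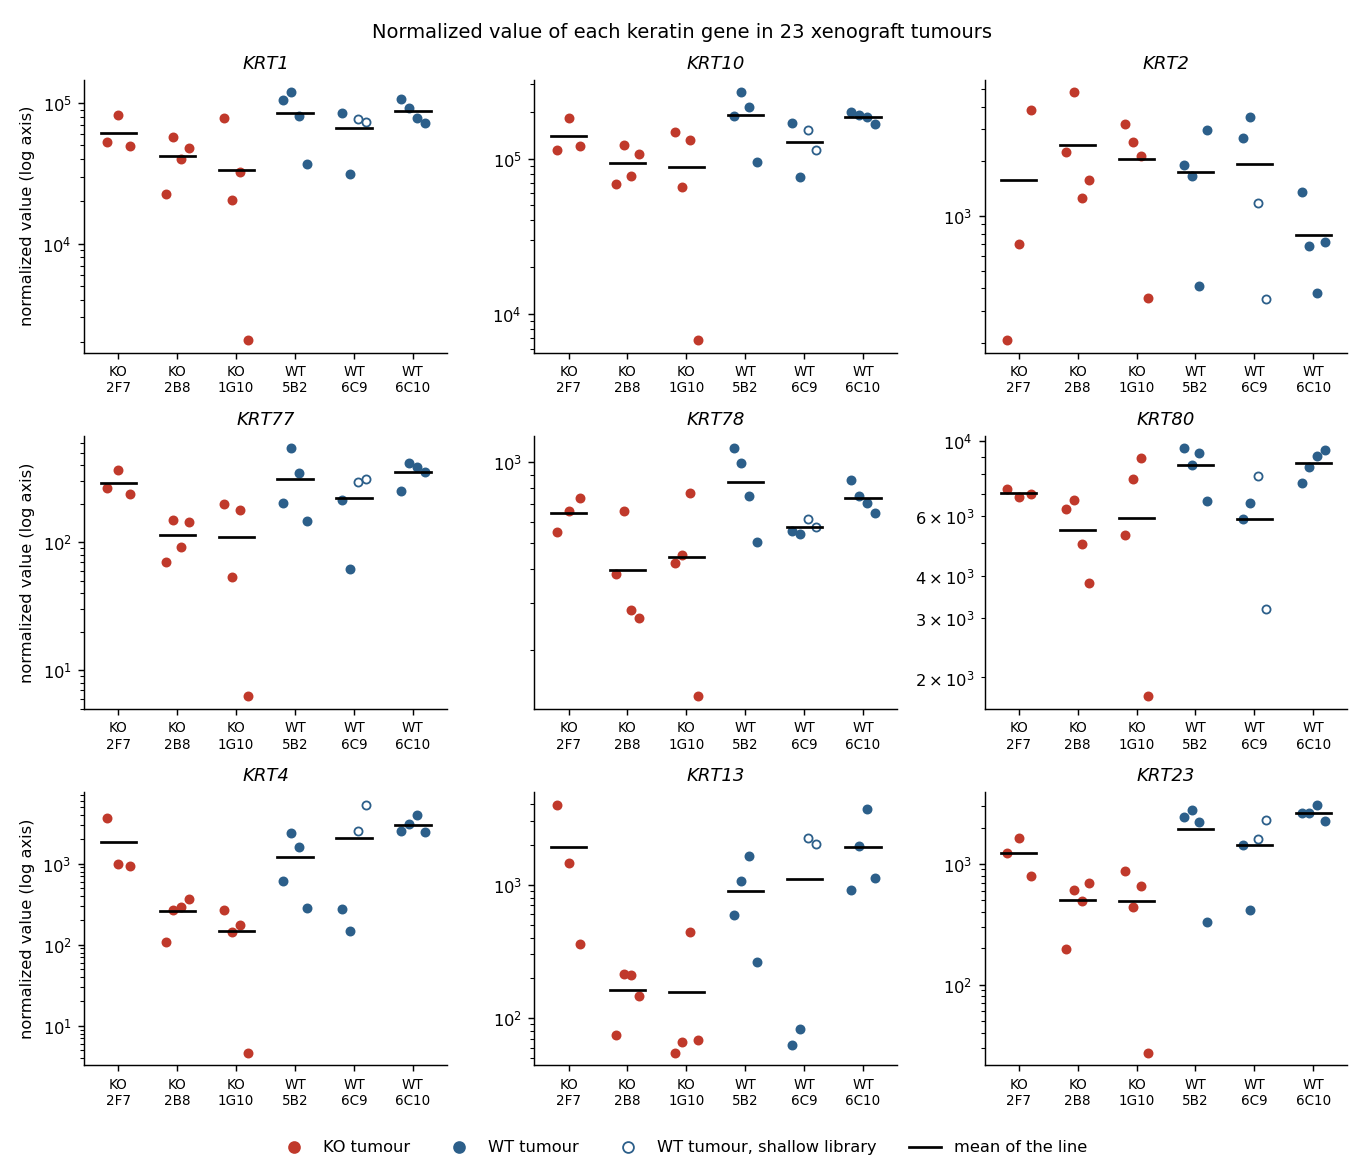
Normalized value (log axis) of the 9 keratins in each tumour, by line, with KO lines on the left and WT lines on the right. Points are tumours, open points are the 2 shallow WT libraries and bars are line means. KO 1G10 specimen 5549 is the lowest point for KRT1, KRT4, KRT10, KRT23, KRT77, KRT78 and KRT80, and KRT2 alone has a higher mean in KO than in WT tumours.

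Over the whole comparison, 8 of the 9 keratins had a lower mean log2 value in KO than in WT tumours, and none passed adjustment over all genes. In limma 0 of 9 members were called at an adjusted p under 0.05, where 0.00623% of the tested genes were. At an unadjusted p under 0.05, 7 of 9 were lower in KO tumours, against 6.63% of all tested genes, and 0 of 9 were higher, against 5.9%. The 7 were KRT1, KRT4, KRT10, KRT13, KRT23, KRT77 and KRT78. The median member difference was -1.17 on the log2 scale, and that of all tested genes was 0.03. With library quality weights in limma 3 of 9 passed, KRT4 (adjusted p = 0.0228), KRT23 (adjusted p = 0.0158) and KRT78 (adjusted p = 0.0355). That weighted fit called 738 of 16063 genes in place of 1. Without both shallow libraries 5 of 9 were lower at an unadjusted p under 0.05, namely KRT1, KRT4, KRT23, KRT78 and KRT80, against 6.02% of genes in that fit. When KO 1G10 specimen 5549 was left out as well, a choice made after the data were seen, there were again 5, now KRT1, KRT10, KRT23, KRT78 and KRT80, against 4.29% of genes, and the median difference was -0.69. Without the KO line 2F7 the same 7 of 9 as in the main fit were lower, against 6.64% of genes, with a median of -1.48. The count was 3 of 9 without the KO line 2B8 (KRT1, KRT4 and KRT23), against 2.94% of genes, with a median of -1.13. It was 4 of 9 without the KO line 1G10 (KRT1, KRT10, KRT23 and KRT78), against 3.56% of genes, with a median of -0.66. Without specimen 5549 alone it was 6 of 9, against 4.99%, with a median of -0.77.

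KRT1 and KRT10, the first keratins a cell makes on leaving the basal layer, were lower together. KRT1 was at 52811, 81909 and 49261 in the KO line 2F7, at 22651, 57123, 40143 and 47864 in 2B8, and at 78903, 20522, 32328 and 2063 in 1G10. In WT tumours it was at 104499, 119700, 80792 and 36835 in 5B2, at 85196, 31439, 76808 and 73456 in 6C9, and at 107369, 92666, 78645 and 71718 in 6C10. The groups overlapped, but 10 of 11 KO tumours lay below the WT median and every KO line mean lay below every WT line mean on the log2 scale. The log2 difference was -1.17 with SE 0.44 (unadjusted p = 0.0137, adjusted p = 0.303). An exact two-sided permutation test on the line means, 3 a genotype, gave p = 0.1 for KRT1, the smallest it can give. Exact permutation of line means also gave exact permutation p = 0.1 for KRT23. For KRT10, KRT78 and KRT80 the exact permutation test on line means gave p = 0.2. For KRT4, KRT13 and KRT77 the exact permutation test on line means gave p = 0.3, and for KRT2 exact permutation p = 0.5. KO line means all lay below WT line means for 2 of 9 members, KRT1 and KRT23, against 8.87% of tested genes, and all above for 0 of 9, against 9.77%.

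KRT10 ranged from 6798 through a median of 113465 to 181589 in KO tumours, and from 75726 through 177408 to 267276 in WT tumours. Again 10 of 11 KO tumours lay below the WT median and the ranges overlapped. The log2 difference was -0.92 with SE 0.39 (adjusted p = 0.342). The KO line 2F7, at a mean of 138710, stood above the WT line 6C9, at 127719. KRT10 took between 0.0533% and 1.98% of a library's signal. Both differences were over 1.5 times smaller without KO 1G10 specimen 5549, while their unadjusted p in limma was lower. Without it that of KRT1 was -0.77 (unadjusted p = 0.0084, adjusted p = 0.447). That of KRT10 was -0.56 (unadjusted p = 0.0227, against 0.0269 with it, adjusted p = 0.493).

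KRT2, the keratin that follows KRT1 and KRT10 in the upper epidermis, did not share this direction. It was at 207, 699 and 3823 in 2F7, at 2259, 4817, 1263 and 1573 in 2B8, and at 3226, 2562, 2134 and 352 in 1G10. In WT tumours it was at 1920, 1663, 409 and 2967 in 5B2, at 2699, 3526, 1179 and 347 in 6C9, and at 1356, 685, 375 and 723 in 6C10. High and low tumours occurred in both genotypes, and 7 of 11 KO tumours lay above the WT median. The log2 difference was 0.40 with SE 0.52 (adjusted p = 0.706), and it stayed above 0 in every alternative run, between 0.09 without the KO line 2B8 and 0.79 with library quality weights.

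KRT77, the neighbour and relative of KRT1, was at 267, 367 and 240 in 2F7, at 69.6, 149, 91.3 and 144 in 2B8, and at 201, 53.3, 181 and 6.24 in 1G10. In WT tumours it ranged from 61.9 through a median of 305 to 544. All 8 tumours of 2B8 and 1G10 lay below all 3 of 2F7. The log2 difference between KO and WT tumours was -1.18 with SE 0.49 (adjusted p = 0.331), and -0.78 without specimen 5549. That tumour held an estimated 8 reads of KRT77.

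KRT78 and KRT80 had smaller differences. KRT78 ranged from 134 through a median of 452 to 767 in KO tumours and from 505 through 674 to 1127 in WT tumours. No WT tumour lay below the KO median, while 2 of 11 KO tumours lay above the WT median. The share of tested genes with such a split was not counted. The KRT78 log2 difference was -0.69 with SE 0.23 (unadjusted p = 0.00719, adjusted p = 0.267). KRT80 ranged from 1759 through 6724 to 8951 in KO tumours and from 3197 through 8148 to 9540 in WT tumours. The lowest WT value was that of the shallow library 5533. The KRT80 difference was -0.39 with SE 0.22 (adjusted p = 0.456), and it was -0.22 without specimen 5549.

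KRT4 and KRT13, the mucosal pair, varied most. On the log2 scale the SD of KRT4 over the 23 tumours exceeded that of 99.8% of tested genes and the SD of KRT13 that of 99.7%. KRT4 was at 3675, 997 and 948 in 2F7, at 108, 267, 295 and 366 in 2B8, and at 267, 144, 173 and 4.68 in 1G10. In WT tumours it was at 619, 2372, 1614 and 285 in 5B2, at 273, 149, 2503 and 5371 in 6C9, and at 2520, 3074, 3994 and 2438 in 6C10. All tumours of 2B8 and 1G10 were at 366 or lower, as were WT 5B2 specimen 5529 and WT 6C9 specimens 5530 and 5531, while 2F7 and the other WT tumours were at 619 or higher. The log2 difference was -2.32 with SE 0.80 (unadjusted p = 0.00767, adjusted p = 0.271), and -1.77 without specimen 5549, which held an estimated 6 reads of it. The highest value, 5371, was that of the shallow library 5533 and rested on 588 reads.

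KRT13 was at 3992, 1449 and 357 in 2F7, at 75.1, 216, 210 and 145 in 2B8, and at 55.2, 66.6, 439 and 68.7 in 1G10. In WT tumours it was at 590, 1071, 1640 and 263 in 5B2, at 63.2, 83.5, 2258 and 2019 in 6C9, and at 921, 1963, 3713 and 1123 in 6C10. The highest value of all 23 tumours was thus in a KO tumour, 2F7 specimen 5538, and tumours of both genotypes lay below 100. The log2 difference was -1.73 with SE 0.75 (adjusted p = 0.349). Specimen 5549, the lowest in KRT4, was not the lowest in KRT13, at 68.7 for KRT13 against 4.68 for KRT4.

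KRT23, the type I keratin outside these pairs, had the smallest unadjusted p of the 9. It was at 1228, 1647 and 795 in 2F7, at 197, 612, 497 and 700 in 2B8, and at 866, 436, 658 and 27.3 in 1G10. In WT tumours it was at 2427, 2816, 2223 and 330 in 5B2, at 1431, 417, 1606 and 2302 in 6C9, and at 2625, 2648, 3108 and 2272 in 6C10. None of the 11 KO tumours reached the WT median, which held for 1 of 9 members, KRT23, and for 2.78% of tested genes. Every KO tumour was below every WT tumour for 0 of 9 members and 0.0% of genes. The line means of KRT23 gave exact p = 0.1. WT specimens 5529 and 5531, at 330 and 417, lay inside the KO range, and KO 2F7 specimen 5539, at 1647, lay above the 6C9 specimens 5530 and 5532. The log2 difference was -1.76 with SE 0.53 (unadjusted p = 0.00271, adjusted p = 0.232). Leaving out specimen 5549 gave -1.34, and leaving out both shallow libraries gave -1.67.

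**Figure D2:**
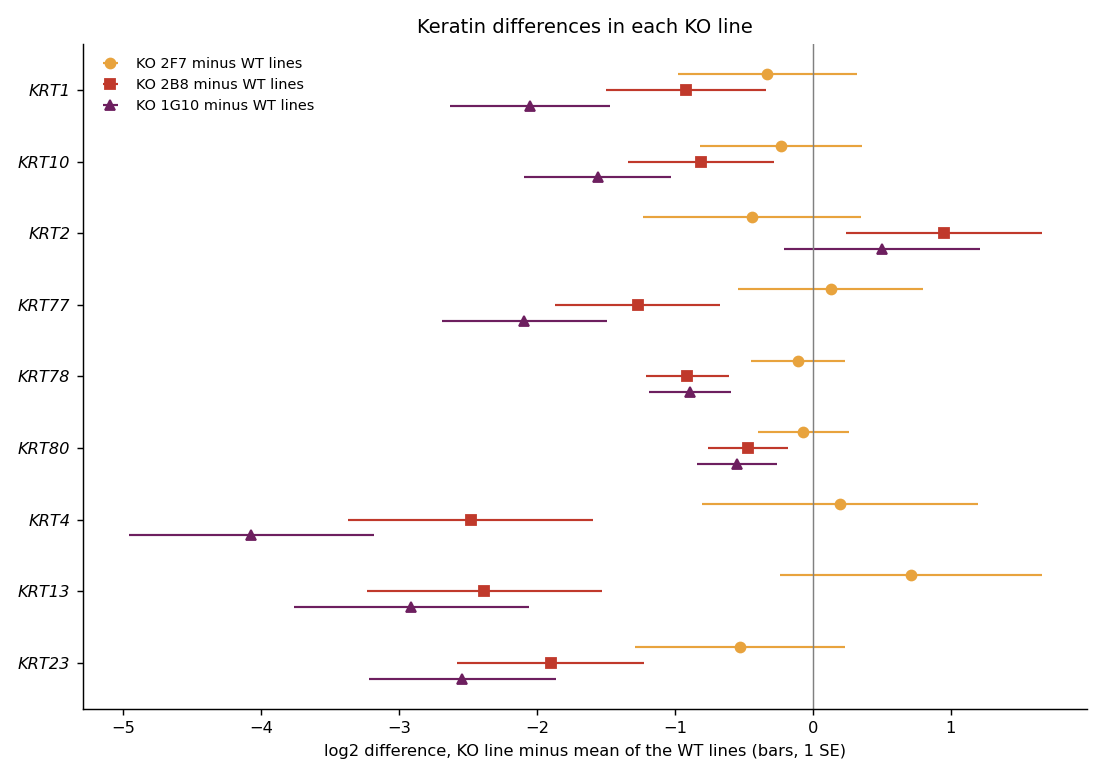
Log2 difference of each keratin between a KO line and the mean of the WT lines, with bars of 1 SE. Line 2F7 lies between -0.53 and 0.71, while 2B8 and 1G10 lie below 0 for every member except KRT2.

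The median member difference from the WT lines was nearest to 0 in line 2F7, and the order of 2B8 and 1G10 differed between members and with specimen 5549. The comparisons of the 3 KO lines share the same WT tumours. In line 2F7 the member differences from the WT lines had a median of -0.11, and 0 of 9 were lower at an unadjusted p under 0.05, against 1.1% of tested genes, and 0 of 9 were higher, against 1.38%. In line 2B8 the median was -0.92 and 5 of 9 were lower (KRT4, KRT13, KRT23, KRT77 and KRT78), against 4.47%, and 0 of 9 higher, against 3.72%. In line 1G10 the median was -2.05 and 7 of 9 were lower (also KRT1 and KRT10), against 5.62%, and 0 of 9 higher, against 4.03%. Without specimen 5549 the median in 1G10 was -1.0, and 5 of 9 were lower (KRT1, KRT4, KRT13, KRT23 and KRT77), against 2.75% of genes. In that fit 8 of 9 were lower in 2B8, all but KRT2, against 5.08%, with its median still at -0.92. There KRT10, KRT23, KRT77, KRT78 and KRT80 lay less far below WT in 1G10 than in 2B8. After adjustment 0 of 9 were called in each line, where 0.0% of genes were. KRT4 had differences of 0.20 with SE 1.0 in 2F7, -2.48 with SE 0.89 in 2B8 and -4.07 with SE 0.89 in 1G10 (adjusted p = 0.152 in 1G10). Without WT 6C9 specimen 5531 KRT4 passed in 1G10, at adjusted p = 0.0336 and a difference of -4.35. KRT13 had differences of 0.71 in 2F7, -2.38 in 2B8 and -2.91 in 1G10.

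Among the KO lines, limma's F test called 0 of 9 members and 0.0% of genes. At an unadjusted p under 0.05 the limma F test found 3 members of 9, KRT4, KRT13 and KRT77, against 2.22% of genes, and each had an adjusted p of 1.0. Every tumour of 2B8 and 1G10 lay below every 2F7 tumour for 2 of 9 members, KRT4 and KRT77, against 1.15% of genes. Among the WT lines the F test called 0 of 9 members and 0.00623% of genes, and 0 of 9 had an unadjusted p under 0.05, against 10.3%. Line 1G10 was uneven: specimen 5549 was the lowest of all 23 tumours for 7 of 9 members, a position it held for 8.96% of tested genes. In the other 3 tumours of 1G10 KRT1 was at 20522 to 78903. Without specimen 5549 the difference of 1G10 from the WT lines was -1.0 for KRT1, -0.56 for KRT10 and -2.81 for KRT4, each with adjusted p = 0.933 in limma.

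Ratios within a tumour set the suprabasal keratins against the basal ones of the same type. They are log2 ratios of normalized values, and gene length cancels in their differences. The ratio of KRT1 to KRT5 averaged -3.25 ± 1.6 in KO and -1.75 ± 0.75 in WT tumours (SD, n = 11 and 12). It fell in KO tumours, with a difference of -1.5 and SE 0.53 (two-sided permutation of tumours, p = 0.0014, adjusted p = 0.007 over 5 ratios). The ratio of KRT10 to KRT14 averaged -2.03 ± 1.41 in KO and -0.83 ± 0.75 in WT tumours, and it also fell, by a difference of -1.2 with SE 0.48 (permutation p = 0.00506, adjusted p = 0.0126). Permuting tumours takes no account of the lines: exact permutation of line means gave 0.1 for KRT1 to KRT5, the smallest possible, and 0.2 for KRT10 to KRT14. The ratios were chosen with earlier results of these data known, which the adjustment over 5 ratios does not cover. Without specimen 5549 the difference was -1.06 for KRT1 to KRT5 (adjusted permutation p = 0.016) and -0.80 for KRT10 to KRT14 (adjusted permutation p = 0.031). The basal keratins had no call of their own: KRT5 had 319257 ± 41150 in KO and 258927 ± 59360 in WT tumours (adjusted p = 0.45), and KRT14 had 344913 ± 40380 in KO and 289082 ± 61230 in WT tumours (adjusted p = 0.493). Specimen 5549 had the highest KRT5 and KRT14 values of all tumours, 411963 and 429157.

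**Figure D3:**
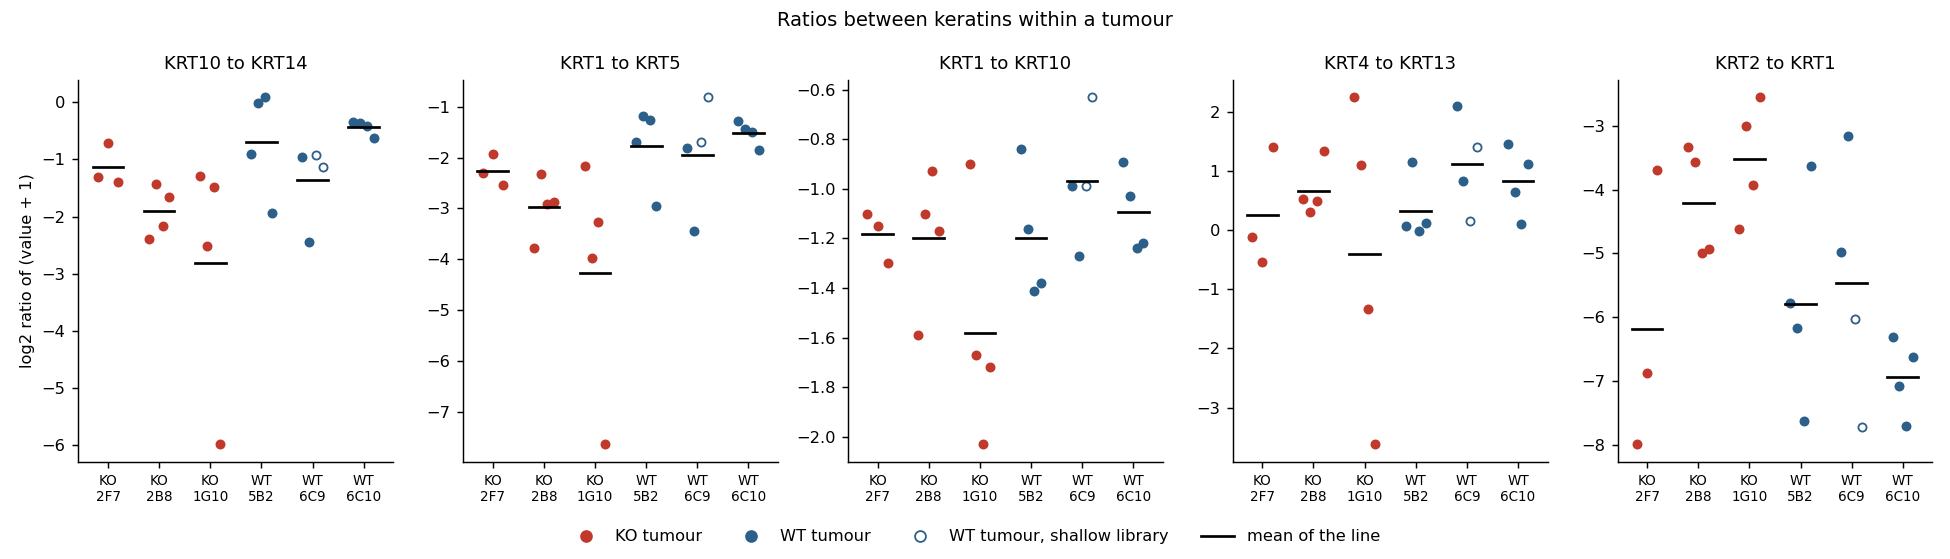
Log2 ratio of the normalized values (each + 1) for 5 pairs of keratins in every tumour, by line, with bars at line means and open points for the shallow libraries. For KRT1 to KRT5 and KRT10 to KRT14 the lowest point is KO 1G10 specimen 5549, at -7.64 and -5.98.

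Of the ratios within a pair, KRT1 to KRT10 varied little and KRT4 to KRT13 widely. KRT1 to KRT10 averaged -1.33 ± 0.36 in KO and -1.09 ± 0.23 in WT tumours, a difference of -0.24 with SE 0.13 (permutation p = 0.0656, adjusted p = 0.082), and it passed without KO 2B8 specimen 5544 (-0.28, adjusted p = 0.0443) or KO 1G10 specimen 5546 (-0.29, adjusted p = 0.0432). KRT4 to KRT13 averaged 0.16 ± 1.6 in KO and 0.76 ± 0.69 in WT tumours, a difference of -0.60 with SE 0.52 (permutation p = 0.268), and by -0.22 without specimen 5549. KRT2 to KRT1, the late against the early suprabasal keratin, averaged -4.49 ± 1.66 in KO and -6.07 ± 1.51 in WT tumours. It rose by 1.57 with SE 0.66 (permutation p = 0.029, adjusted p = 0.0483). That call rested on single tumours: it was lost in 16 of 23 fits that left out 1 tumour (differences of 1.38 to 1.92 over all 23) and without both shallow libraries (1.41, adjusted p = 0.102), and line means gave exact p = 0.3.

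Over the 23 tumours KRT2 ran against KRT13, while KRT1 and KRT10 ran together. Correlations were computed for 36 pairs on log2 values, with permutation tests (two-sided) adjusted over the pairs. The shuffling ignored line and genotype, so shifts shared by a line or genotype enter these p-values. All 28 pairs without KRT2 had a positive Spearman rho, and all 8 pairs with KRT2 had a negative one. Pearson's r was nonetheless positive for 4 of those 8 (KRT2 with KRT1, KRT10, KRT78 and KRT80, 0.06 to 0.19). Within lines it was positive for 6 of the 8, all but those with KRT4 and KRT13. KRT1 and KRT10 had rho = 0.93 and Pearson r = 0.97 (permutation p = 1e-05 for each, the smallest the permutations can give, adjusted 4e-05), r = 0.90 without KO 1G10 specimens 5547 and 5549, and r = 0.97 in KO and 0.92 in WT tumours. KRT4 and KRT13 had rho = 0.88 and r = 0.85 (permutation p = 1e-05 for each, adjusted 4e-05), and r = 0.91 without WT 6C9 specimen 5533 and KO 1G10 specimen 5549. KRT2 and KRT13 had rho = -0.67 (permutation p = 0.00058, adjusted 0.00123) and r = -0.66 (permutation p = 0.00073, adjusted 0.00131). Without WT 6C9 specimen 5533 and KO 2F7 specimen 5538 their r was -0.56. Over all tumours of a genotype their r was -0.51 in KO and -0.84 in WT tumours. Their rho was -0.33 in KO and -0.88 in WT tumours. KRT2 and KRT4 had rho = -0.62 (permutation p = 0.00182, adjusted 0.00328), while r was -0.37 (permutation p = 0.0766, adjusted 0.092), at -0.02 in KO and -0.84 in WT tumours; that difference was not tested. The r within lines, after each line's mean was taken off, was 0.97 for KRT1 and KRT10, 0.70 for KRT4 and KRT13, -0.62 for KRT2 and KRT13 and -0.20 for KRT2 and KRT4.

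**Figure D4:**
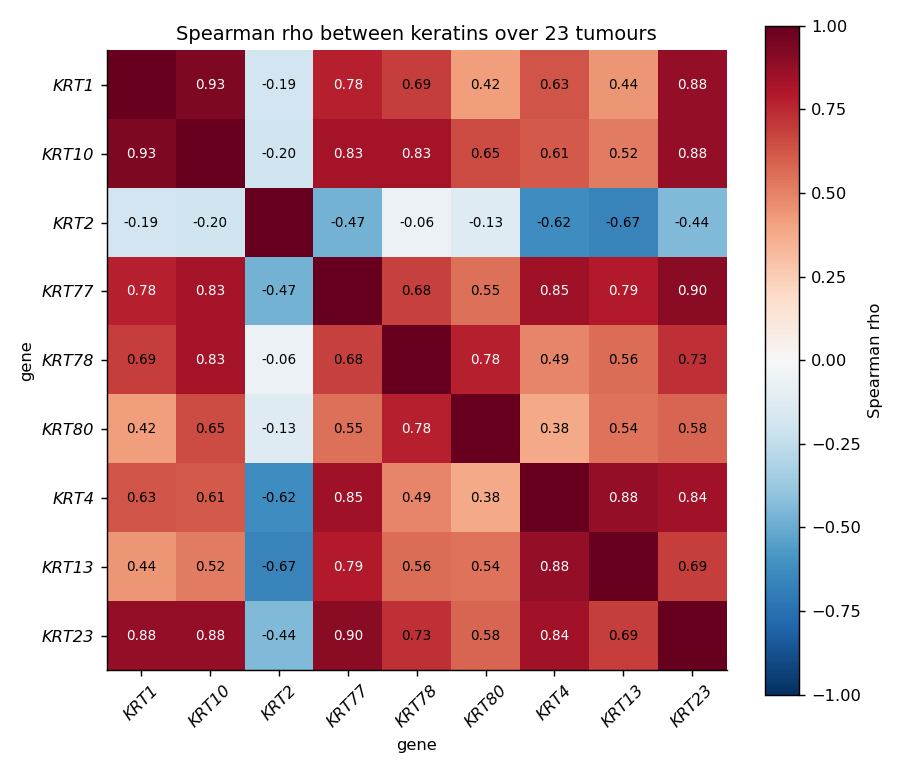
Spearman rho between each pair of the 9 keratins over the 23 tumours, from blue (negative) to red (positive). The row of KRT2 holds the 8 negative values, from -0.67 with KRT13 to -0.06 with KRT78.

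**Figure D5:**
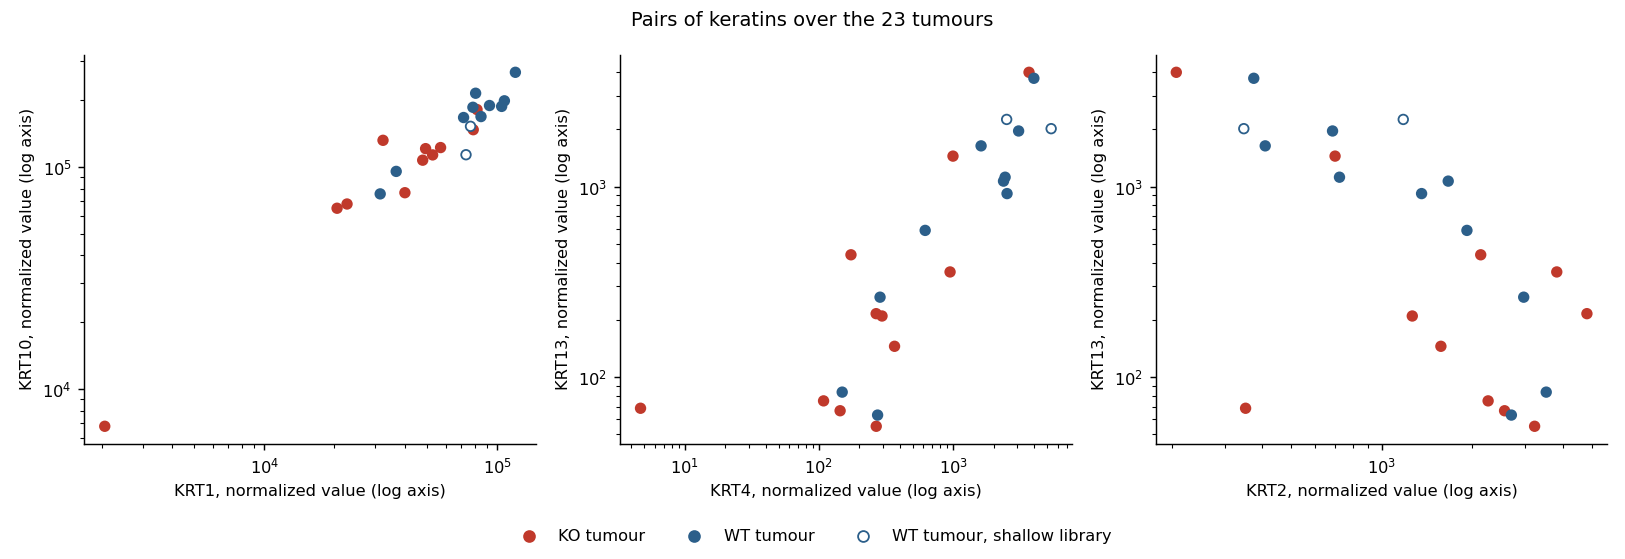
Normalized values (log axes) of KRT10 against KRT1, KRT13 against KRT4 and KRT13 against KRT2, 1 point per tumour, KO and WT in colour and the shallow libraries open. KRT10 and KRT1 lie on a line with specimen 5549 far down it at 2063 for KRT1 and 6798 for KRT10, and the highest KRT13 value, 3992, is in the tumour with the lowest KRT2, 207.

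Marker sums of other tissues varied along with some members. The skeletal muscle markers (8 of 8 with a mean of at least 10) summed to between 183.5 and 13210 in KO tumours and between 34.2 and 13580 in WT tumours. The 5 tumours with the lowest KRT2 (KO 5538 and 5549, WT 5533, 5536 and 5528) had muscle sums of 13210, 2210, 5974, 13580 and 5540. The 5 with the highest KRT2 (KO 5543, 5540 and 5546, WT 5531 and 5529) had muscle sums of 323, 642, 503, 47.0 and 233. High muscle sums also went with high KRT13. The 5 tumours with the highest KRT13 (KO 5538, WT 5536, 5532, 5533 and 5535) had muscle sums of 13210, 13580, 6251, 5974 and 9737. The 5 with the lowest KRT13 (KO 5546, 5547, 5549 and 5542, WT 5530) had 503, 209, 2210, 183.5 and 152.5. KO 5544 differed, with a muscle sum of 13060, KRT13 at 210 and KRT2 at 1263. The fibroblast markers (9 of 10 with a mean of at least 10) summed to between 5165 and 32260 in KO tumours and between 2604 and 19860 in WT tumours, and 8 of 9 tested had a higher mean in KO tumours, without a call. The 5 highest fibroblast sums, 32260 and 17780 and 17010 in KO specimens 5542, 5549 and 5547 and 19860 and 17780 in WT specimens 5531 and 5529, were in 5 of the 6 tumours with the lowest KRT1. The remaining tumour of those 6, KO 5548, with KRT1 at 32328, had the lowest fibroblast sum of the KO tumours, 5165. The tumours grew in mice, and no source used here states how mouse reads were treated. Human and mouse reads therefore cannot be told apart in these marker sums. The part of either tissue in the keratin values was not tested. In bulk RNA, fewer cells of a type and less RNA per cell cannot be told apart. Endothelial markers (1 of 5 with a mean of at least 10) summed to between 71.2 and 204 in KO and between 89.3 and 223 in WT tumours, and leukocyte markers (4 of 6) to between 416.5 and 640.2 in KO and between 475 and 657 in WT tumours. Melanocyte markers (1 of 4) summed to at most 47.2 in KO and 54.8 in WT tumours, or 29.2 in WT tumours without the shallow library 5533, and hair and sweat gland markers (2 of 8) to between 8.26 and 525.6 in KO and between 6.25 and 119 in WT tumours. No listed marker of these tissues that was in the table stayed below 1 in every tumour.

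The genes nearest in pattern were taken by Spearman rho over the 23 tumours among tested protein-coding genes outside the 9. Nearest to KRT10 were the receptor EPHB6 (rho 0.936), TPRG1 (0.934), the epidermal lipase LIPM (0.921), the retinol dehydrogenase RDH12 (0.908) and NLRP10 (0.908). LIPM was at 64.0 ± 33.4 in KO and 165.5 ± 77.6 in WT tumours (SD, n = 11 and 12). Nearest to KRT1 were RDH12 (0.898), TPRG1 (0.896), the carbonic anhydrase CA2 (0.89), the transcription factor GATA3 (0.883) and the keratin KRT79 (0.867). Nearest to KRT23 were HAL, the histidine ammonia-lyase (0.977), BLMH, the bleomycin hydrolase (0.975), ARG1, arginase (0.975), the small heat shock protein HSPB8 (0.961) and the kallikrein KLK9 (0.951). HAL was at 740 ± 443 in KO and 2308 ± 1125 in WT tumours, and ARG1 at 176.5 ± 136 in KO and 681 ± 390 in WT tumours. These correlations describe the tumours, which share lines and libraries, and the genes were picked as the highest of all. Genes picked to follow a member over these tumours tend to share its genotype difference, so their KO and WT means are no separate result. In limma LIPM had adjusted p = 0.235, and HAL and ARG1 each had 0.227.

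Among the other keratins most means were higher in KO tumours. The table holds 38 more protein-coding keratins, of which 22 were tested: 0 were called, 7 had a lower mean log2 value and 15 a higher one in KO tumours, with a median difference of 0.30. At an unadjusted p under 0.05, 3 were lower (KRT79, KRT37 and KRT9) and 1 was higher. Of all tested genes 6.63% were lower and 5.9% higher at that level. KRT79 was at 563.3 ± 288.6 in KO and 1291 ± 430.6 in WT tumours (limma, difference -1.4, unadjusted p = 0.000898, adjusted p = 0.227). That unadjusted p was smaller than any among the 9 members. KRT85, KRT71 and KRT25, among those with higher means, had means of 12.9, 12.6 and 12.4, with SDs above the mean in each genotype. A list of 6 keratins of wounds and the hair follicle (KRT6A, KRT6B, KRT6C, KRT16, KRT17 and KRT75) had higher means in KO tumours throughout, with a median of 0.38 and no call. The 1 with an unadjusted p under 0.05 was KRT75, a keratin of the companion layer of the hair follicle and not of wounds, at 23.8 ± 9.27 in KO and 15.8 ± 7.82 in WT tumours. KRT6A, made at wound edges, was at 224600 ± 43920 in KO and 200400 ± 60650 in WT tumours, and KRT16, its partner, at 177800 ± 46430 in KO and 158500 ± 43940 in WT tumours. KRT6A, KRT6B and KRT6C are near-identical and KRT16 has pseudogene copies, so their values are uncertain. Of 4 tested simple epithelial keratins 2 were lower and 2 higher, with KRT18 at 567.9 ± 112 in KO and 655 ± 228 in WT tumours and KRT8 at 161 ± 103 in KO and 107 ± 33.1 in WT tumours.

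No gene was called in limma on the lists of genes that act with these keratins. Their counts at an unadjusted p under 0.05 stand against 6.63% of all tested genes lower and 5.9% higher. Of the filaggrin and envelope genes, which bundle keratins and cover the dead cell, 19 of 22 had a lower mean log2 value in KO tumours (median -0.46; 10 lower and 0 higher at an unadjusted p under 0.05). FLG, whose product aggregates keratin filaments, was at 48270 ± 44180 in KO and 89010 ± 43900 in WT tumours (difference -1.20, SE 0.50, adjusted p = 0.339), and CDSN was at 42180 ± 14080 in KO and 56670 ± 15020 in WT tumours. Of the mucosal squamous genes, which share their tissue with KRT4 and KRT13, 12 of 12 tested were lower (median -0.59; 6 at an unadjusted p under 0.05). CRCT1 was at 4028 ± 1662 in KO and 6238 ± 3173 in WT tumours, and EMP1 at 1068 ± 129 in KO and 1161 ± 208 in WT tumours. Of the desmosome genes, which anchor keratin filaments at the cell border, 10 of 12 had a higher mean in KO tumours (median 0.33; 5 higher and 0 lower at an unadjusted p under 0.05). DSP, the linker itself, was at 128800 ± 24390 in KO and 93050 ± 34830 in WT tumours (adjusted p = 0.349), and PERP was at 72130 ± 11620 in KO and 77160 ± 8438 in WT tumours. Regulators of the suprabasal switch were mixed, 15 lower and 13 higher of 28 tested (median -0.04; 7 lower and 3 higher at an unadjusted p under 0.05), with TP63, the master factor of basal cells, at 5763 ± 889 in KO and 4788 ± 1255 in WT tumours and CEBPB at 3485 ± 854 in KO and 4377 ± 527 in WT tumours.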

How the data were processed

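Tumour poly(A) RNA was made into directional libraries from 500 ng of RNA, per the labels' protocols. The authors deposited 1 normalized signal per gene and tumour. STAR, DESeq2 and hg38 are named in the submitters' processing notes, without versions or roles; no source used here states the counter, its strand setting or the treatment of mouse reads. Median-ratio size factors recomputed from the table were 1.01537 in every library. The value of 1 read was taken as the most frequent low value of a library, and some values were fractional multiples of it.

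Genes with a mean of at least 10 (16063) were analysed as log2(value + 1) in limma 3.58.1 (R 4.3.3). Variances were moderated toward a mean-dependent trend, tumours of a line were blocked (consensus correlation 0.00766), and adjustment was Benjamini-Hochberg at 0.05. At that correlation the block changed little: KRT1 had adjusted p = 0.281 in limma without it and 0.303 with it. The KO against WT p-values of limma thus treat tumours of a line as nearly independent. Line contrasts and F tests came from a fit with a mean for each line and no block. No count test was run, since reads came out partly fractional. The log2 scale with 1 added understates changes of low genes. The fit was tested on simulated data. Ratios and correlations used 100000 permutations (numpy 2.4.6) and line means the exact test of scipy 1.17.1. Levels per kb used exon unions of GENCODE 29.

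The members, lists and tests were chosen with earlier results of these data known. Named genes were the 9 members, KRT5 and KRT14, called members of each list or else the 2 with the highest mean, and the 5 nearest genes of KRT10, KRT1 and KRT23. Alternatives were pseudocounts of 0.5 and 10, no filter or a mean of 50, rescaling to equal totals, library quality weights, no block, and leaving out tumours, both shallow libraries or KO lines. Motifs were chosen after the sequences were seen.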

Additional observations from a re-analysis of the deposited data

Results flagged for a closer look

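KRT13 in KO 1G10 specimen 5548 was 439, far from the other 3 tumours of its line, which lay between 55.2 and 68.7. Its gap to the nearest tumour was 0.965 of the line's range, above the limit of 0.829 for 4 samples. Among 45 sets of 4 tumours of a line, 1 was flagged in this way, and chance flags about 1 in 20.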

How the results depend on the processing

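The count of members lower at an unadjusted p under 0.05 was 3 of 9 without the KO line 2B8 and 4 of 9 without 1G10, in place of 7. It stayed at 7 without 2F7. Every member difference between KO and WT tumours kept its sign under each alternative run. With library quality weights 3 members passed, KRT4 (-2.46, adjusted p = 0.0228), KRT23 (-1.83, adjusted p = 0.0158) and KRT78 (-0.73, adjusted p = 0.0355). The weights also moved the members called to 2, 4 and 4 of 9 in the lines 2F7, 2B8 and 1G10. Among KO lines they moved them to 8 of 9 and among WT lines to 2 of 9. Of 16063 tested genes, the weights called 738 for KO against WT and 7906, 1045 and 326 in the lines 2F7, 2B8 and 1G10. They called 6459 among KO and 1919 among WT lines. In 2F7 the share of members called was below that of tested genes, and in the other comparisons above it. The cause of the larger counts was not tested. For KO against WT 0 genes were called, in place of 1, after rescaling, without both shallow libraries, without these and specimen 5549, without the KO line 2B8 and without 1G10. With no filter 1 gene was called in 2F7 and 1 in 2B8. Leaving out 1 tumour gave 0 to 1 genes for KO against WT and among WT lines, 0 to 17 in 2B8 and 0 to 26 in 1G10, and 0 to 1 members in 1G10. The ratio of KRT2 to KRT1 differed by 1.41 without both shallow libraries and by 1.22 without these and specimen 5549, past the threshold in neither, and by 1.38 to 1.92 without 1 tumour; KRT1 to KRT10 ranged from -0.29 to -0.18. No paired analysis was possible because the specimen numbers are not shared between groups. Few reads limit KRT4, KRT77 and KRT23 in specimen 5549 (6, 8 and 35) and KRT77, KRT2 and KRT78 in specimen 5533 (34, 38 and 63).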
